A study of Mus musculus with 15 samples.

Results

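The diet dependence of the response to MCOPPB in mouse liver was measured gene by gene, as the MCOPPB effect under DEN/HFD minus the MCOPPB effect on chow. All 15 liver libraries entered it, and the members were the 11568 of 54281 listed genes that were expressed, meaning that a gene lay at least 1 log2 unit above the lowest value of the table in at least 3 libraries (about 22.5 normalized counts). A positive value means that the effect of MCOPPB was higher under DEN/HFD, and a negative value that it was lower there.

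MCOPPB is a ligand selective for the nociceptin receptor, studied here as a senolytic, an agent meant to remove senescent cells. All animals were male C57BL6J mice aged 9.5 months whose liver was sampled. The chow groups received vehicle at 2 weeks of age and stayed on chow, and were injected with saline (3 libraries) or MCOPPB (5 libraries). The DEN/HFD groups received the carcinogen diethylnitrosamine (DEN) at 25 mg/kg at 2 weeks of age, ate chow to week 6 and then a high-fat diet (HFD) with 60% of energy from lard for 32 weeks, and were injected with saline (4 libraries) or MCOPPB (3 libraries). MCOPPB was given intraperitoneally at 5 mg/kg on 5 consecutive days followed by 2 days of washout, over 3 cycles and 21 days. Carcinogen and fat were always given together, so the part of each in any difference between the chow and DEN/HFD settings cannot be told apart. The titles number the mice, but nothing in the labels describes cages, litters or the hour of collection, and p-values measure the spread between these libraries.

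Liver gene expression in mice differs strongly between males and females, because the sexes secrete growth hormone in different patterns, and genes for major urinary proteins, cytochromes P450 and sulfotransferases carry that bias. Many P450 genes also answer to the nuclear receptors CAR and PXR, which sense foreign compounds. A further set of liver genes follows the circadian clock, in which BMAL1 and CLOCK drive the Per and Cry repressors and output genes such as Dbp and Usp2.

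Estimated depth ran from 9.32 to 18.7 M reads per library (median 15.01 M), and transcripts of the mitochondrial genome took 12.01% to 30.95% of the normalized counts. Correlations between libraries over the expressed genes ran from 0.896 to 0.969. Oprl1 encodes the nociceptin receptor and Pnoc the precursor of nociceptin, and both were at 0 in all 15 libraries, which allows up to 0.322 reads per M in the shallowest library (3 reads, counting error only). Hepatocyte transcripts such as Alb and Ttr were present in all 15 libraries. Replicate 4 of the DEN/HFD saline group stood apart from its group for several sex-biased and clock genes described below.

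Printed here for 4 of the genes below are the 250 bases before the RefSeq start (GRCm38.p6) of Cyp2b9, Cyp2b13, Cyp2c40 and Cyp2c69. They are shown because both members of each pair had negative differences. The windows lie upstream of the RefSeq start and do not compare the transcripts. Cyp2b9 (chr7:26173159-26173408, + strand) and Cyp2b13 (chr7:26061245-26061494, + strand) matched at 248 of 250 bases (99.2%). Cyp2c40 (chr19:39812815-39813064, - strand) and Cyp2c69 (chr19:39886770-39887019, - strand) matched at 217 bases with 3 mismatches, their windows being offset by 30 bases. Capitals mark the bases that differ within the aligned pair.
Cyp2b9: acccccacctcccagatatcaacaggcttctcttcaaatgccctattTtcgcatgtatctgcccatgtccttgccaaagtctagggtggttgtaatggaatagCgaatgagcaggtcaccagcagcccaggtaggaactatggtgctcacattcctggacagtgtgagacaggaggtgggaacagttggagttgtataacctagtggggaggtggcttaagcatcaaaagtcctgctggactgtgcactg
Cyp2b13: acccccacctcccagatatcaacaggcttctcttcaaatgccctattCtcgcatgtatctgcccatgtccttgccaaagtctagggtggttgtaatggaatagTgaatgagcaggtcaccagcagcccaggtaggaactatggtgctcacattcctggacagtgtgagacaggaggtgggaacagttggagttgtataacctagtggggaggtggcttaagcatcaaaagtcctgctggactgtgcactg
Cyp2c40: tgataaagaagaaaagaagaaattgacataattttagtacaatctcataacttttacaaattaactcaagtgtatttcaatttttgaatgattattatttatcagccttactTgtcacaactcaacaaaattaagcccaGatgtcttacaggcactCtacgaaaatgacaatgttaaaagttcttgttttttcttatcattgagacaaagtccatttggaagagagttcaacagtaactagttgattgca
Cyp2c69: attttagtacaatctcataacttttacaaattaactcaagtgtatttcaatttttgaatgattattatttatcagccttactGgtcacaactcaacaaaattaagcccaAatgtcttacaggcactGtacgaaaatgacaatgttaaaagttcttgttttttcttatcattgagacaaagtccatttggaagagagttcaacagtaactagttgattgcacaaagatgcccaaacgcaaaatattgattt

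The effect of MCOPPB differed between the settings for 8 of 11568 genes (0.0692%) at a Benjamini-Hochberg adjusted p under 0.05 in limma. Of these, 3 differences were positive (0.0259%; Elovl3, Gm43302 and Dtx4) and 5 were negative (0.0432%; Cyp2b9, Cyp2b13, Cyp2c40, Dclre1a and Usp2). The effects had opposite signs in the 2 settings for 5 of the 8, and the same sign with the larger size on chow for Cyp2b9, Cyp2b13 and Cyp2c40. At an unadjusted p under 0.05, 683 genes differed (5.90%), 315 positive (2.72%) and 368 negative (3.18%). Among these 683, 624 had opposite signs on chow and under DEN/HFD, against 6099 of all 11568 (52.7%), which follows in part from choosing genes by the difference. The median standard error of a difference was 0.31 on the log2 scale, against 0.22 for the effect on chow and 0.22 for that under DEN/HFD. The plot of both effects gene by gene shows that most genes lay near 0 in both.

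**Figure D1:**
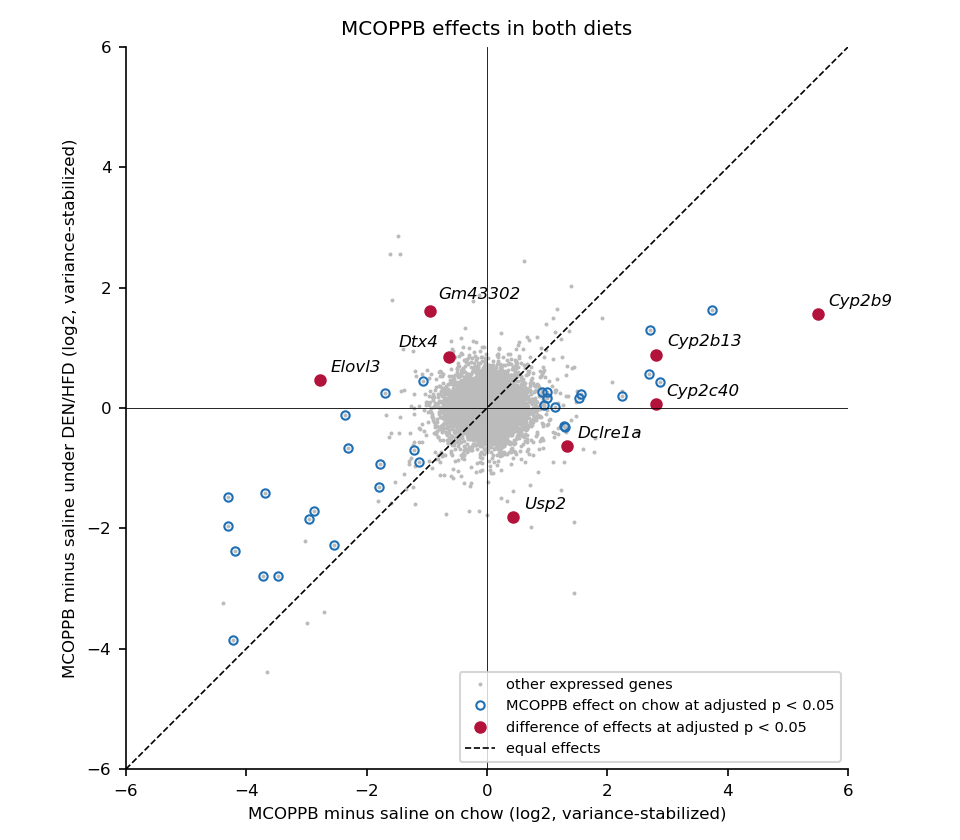
Each point is a gene, placed by its MCOPPB effect on chow (x axis, log2) and under DEN/HFD (y axis, log2), with the dashed line marking equal effects. The 8 genes whose effects differed at an adjusted p under 0.05 are filled and named, and they lie away from the line, Cyp2b9 at 5.50 on chow against 1.57 under DEN/HFD.

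Cyp2b9 (ENSMUSG00000040660.6, chr7:26173411-26210661, + strand, GRCm38) encodes a female-biased cytochrome P450. Its normalized counts were 30.4, 0 and 18.4 in the chow saline livers and 2847, 3010, 4167, 2115 and 4341 in the chow MCOPPB livers. Under DEN/HFD they were 339, 447, 487 and 181 with saline and 1250, 1310 and 1011 with MCOPPB. No treated library overlapped its saline group in either setting, and the DEN/HFD saline livers already lay above the chow saline livers. The MCOPPB effect was 5.50 ± 0.29 (SE) on chow (limma adjusted p = 6.97e-09) and 1.57 ± 0.31 under DEN/HFD (adjusted p = 0.126), a difference of -3.93 ± 0.42 (adjusted p = 0.00046). This call held in all 27 alternative analyses, with a largest adjusted p of 0.0172.

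Cyp2b13 (ENSMUSG00000040583.8, chr7:26061497-26096197, + strand), the neighbouring female-biased P450, was at 0 in all 3 chow saline livers and at 207, 140, 276, 178 and 446 normalized counts after MCOPPB on chow. In the DEN/HFD groups its values were 15.9, 10.4, 25.9 and 13.7 with saline and 68.5, 84.9 and 66.9 with MCOPPB. Again the treated libraries lay above saline in both settings without overlap, and the step was smaller under DEN/HFD. The difference of effects was -1.93 ± 0.32 (limma adjusted p = 0.0394). Its call held in 4 of the 15 fits that leave out a library, with an adjusted p of up to 0.156. Whether reads are shared between this pair of paralogs was not tested, and the counting rule for shared reads is not given in the sources used here, so that Cyp2b13 is uncertain.

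Cyp2c40 (ENSMUSG00000025004.16, chr19:39767071-39812814, - strand), a P450 of the fatty acid and drug metabolizing 2C family with higher levels in females, was at 118, 70.0 and 42.2 normalized counts in chow saline livers and at 378, 1056, 1002, 1145 and 1643 after MCOPPB. In the DEN/HFD livers it was at 15.9, 29.7, 13.7 and 62.2 with saline and at 38.1, 33.9 and 21.5 with MCOPPB. On chow the groups were separate, while under DEN/HFD all 3 treated livers lay inside the saline range. The effect was 2.81 ± 0.32 on chow and 0.06 ± 0.33 under DEN/HFD, a difference of -2.74 ± 0.46 (limma adjusted p = 0.0394). Cyp2c69, its neighbour, had a similar pattern without passing the adjusted threshold, at a mean of 17.7 and 512 normalized counts on chow and 1.81 and 11.4 under DEN/HFD (difference -2.44 ± 0.50, adjusted p = 0.113). Cyp2c69 passed the expression filter only through the chow MCOPPB livers, so its higher level there follows in part from the filter. Whether reads are shared between Cyp2c40 and Cyp2c69 was not tested either, so their similar patterns may not be separate.

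Elovl3 (ENSMUSG00000038754.5, chr19:46131897-46135694, + strand), a male-biased elongase of very long chain fatty acids, moved the other way. It was at 865, 589 and 613 normalized counts in chow saline livers and fell to 40.0, 44.7, 83.6, 29.4 and 18.3 after MCOPPB. The DEN/HFD livers were at 320, 326, 328 and 183 with saline and at 709, 383 and 266 with MCOPPB. The chow groups were far apart, while the DEN/HFD groups overlapped. The effect was -2.78 ± 0.26 on chow (limma adjusted p = 1.5e-05) and 0.47 ± 0.27 under DEN/HFD, a difference of 3.24 ± 0.37 (adjusted p = 0.000535). It was called in all 27 alternatives, at an adjusted p of at most 0.0166. Elovl3 overlaps Pitx3 on the other strand, and although the library kit keeps strand, the strand setting of the counting is not given in the sources used here.

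**Figure D2:**
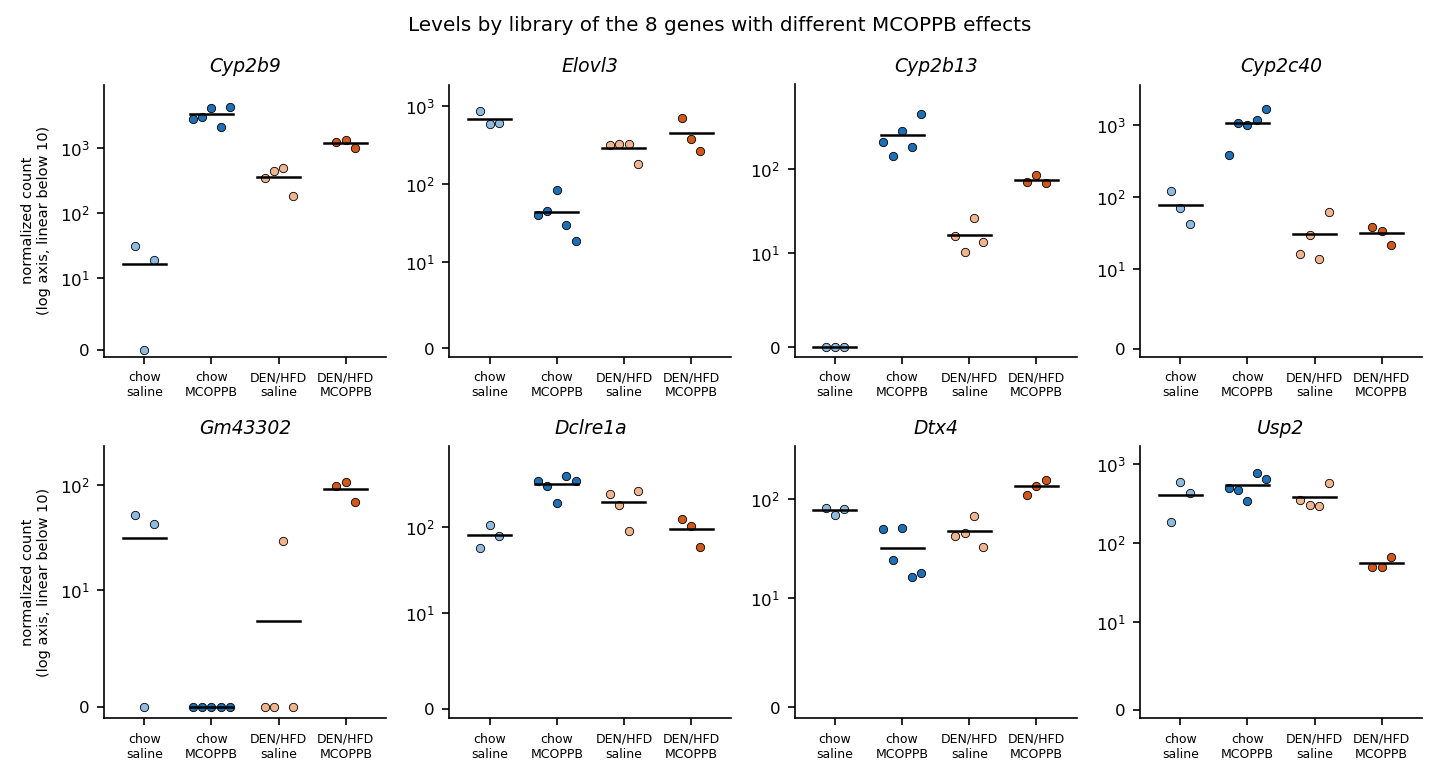
Normalized counts (logarithmic above 10, linear below) of the 8 genes in each of the 15 libraries, as points by group, with group means as bars. Cyp2b9 and Cyp2b13 are higher after MCOPPB in both settings, Elovl3 is lower after MCOPPB on chow alone, and Usp2 is lower in the 3 DEN/HFD MCOPPB livers.

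Usp2 (ENSMUSG00000032010.15, chr9:44067021-44095627, + strand), a deubiquitinase expressed with a daily rhythm, carried its change under DEN/HFD. The chow livers were at 185, 594 and 432 normalized counts with saline and at 495, 476, 341, 774 and 647 with MCOPPB, and these groups overlapped. The DEN/HFD livers were at 352, 307, 294 and 580 with saline and at 49.7, 50.0 and 66.3 with MCOPPB. All 3 treated DEN/HFD livers thus lay below every other liver of the study. Usp2 fell by 1.82 ± 0.29 under DEN/HFD (limma adjusted p = 0.0312), the effect on chow was 0.44 ± 0.28, and the difference was -2.25 ± 0.40 (adjusted p = 0.0432). The call under DEN/HFD was lost in each of the 7 fits that leave out a DEN/HFD library, with effects of -1.91 to -1.64 over all 15 such fits (limma adjusted p up to 0.362). Without DEN/HFD saline replicate 4 the difference was -2.07 ± 0.39 (adjusted p = 0.0718). Usp2 overlaps Gm49380 and Gm39325 on the other strand.

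Dclre1a (ENSMUSG00000025077.13, chr19:56529167-56548222, - strand) encodes a nuclease of DNA cross-link repair. It was at 56.4, 104 and 77.9 normalized counts in chow saline livers and at 341, 298, 191, 394 and 340 after MCOPPB, without overlap. In DEN/HFD livers it was at 239, 180, 89.6 and 261 with saline and at 122, 103 and 59.1 with MCOPPB, with overlap. The difference was -1.97 ± 0.34 (limma adjusted p = 0.0432), from an effect of 1.34 ± 0.24 on chow (adjusted p = 0.0144) and -0.64 ± 0.25 under DEN/HFD (adjusted p = 0.923). The call on chow was lost without chow saline replicate 1 (limma adjusted p = 0.0645) or 3 (adjusted p = 0.0806).

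Dtx4 (ENSMUSG00000039982.8, chr19:12466338-12501454, - strand), a ubiquitin ligase of the Deltex family linked to Notch signalling, was at 81.7, 68.9 and 79.5 normalized counts with saline on chow and at 49.3, 24.1, 50.8, 16.2 and 17.8 with MCOPPB. In DEN/HFD livers the values were 42.6, 45.5, 67.6 and 32.6 with saline and 110, 136 and 156 with MCOPPB. Treated livers lay below saline on chow and above saline under DEN/HFD, without overlap in either setting. The effects were -0.63 ± 0.18 and 0.84 ± 0.19, neither passing alone, and their difference was 1.47 ± 0.26 (limma adjusted p = 0.0432).

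Gm43302 (ENSMUSG00000079362.5, chr5:105214907-105293695, - strand) is a gene model that overlaps Gbp6 and Gbp10, genes of interferon-induced guanylate-binding proteins, on the same strand, so that its counts are uncertain. It was at 51.3, 0 and 42.7 normalized counts with saline on chow and at 0 in all 5 chow MCOPPB livers. Under DEN/HFD it was at 0, 0, 29.3 and 0 with saline and at 97.2, 106 and 68.1 with MCOPPB. Counts were thus present in 6 of 15 livers, among them all 3 treated DEN/HFD livers. The difference was 2.56 ± 0.44 (limma adjusted p = 0.0432).

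Apart from Cyp2b9 and Elovl3, the calls were lost in most fits that leave out 1 library, with libraries of every group among those left out. In the 15 fits that leave out 1 library, the number of genes called ran from 2 to 12, and Cyp2c40, Gm43302, Dclre1a and Usp2 were each called in 3 of the 15 fits and Cyp2b13 and Dtx4 in 4. All 8 kept the sign of their difference throughout. Only the fit without chow MCOPPB replicate 4 called all 8, and 2 genes were called without chow saline replicate 1 or 3, without DEN/HFD MCOPPB replicate 2 or 3, or without DEN/HFD saline replicate 2. Without DEN/HFD saline replicate 4, 4 genes were called, namely Cyp2b9, Elovl3, Por and Hsd3b5.

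Genes that answered on chow had smaller effects under DEN/HFD. MCOPPB changed 37 genes on chow (0.320% of those tested; 18 up, 0.156%, and 19 down, 0.164%), and 31 of the 37 had the same sign under DEN/HFD. In all 37 the effect under DEN/HFD was smaller in size, at a median of 0.67 in the direction of the chow effect against a median size of 2.36 on chow. The genes were chosen for a large chow effect and the chow libraries also enter the difference, so a smaller value in the other setting follows in part from the choice. The difference itself was called for 5 of the 37 and was at an unadjusted p under 0.05 for 27. Under DEN/HFD, 3 genes were called (0.0259%), Usp2 and Inmt downward (0.0173%) and Cyp17a1 upward (0.00864%). None of these 3 calls held in any of the 7 fits that leave out a DEN/HFD library, nor without chow saline replicate 3, nor in limma with the replicate number as a block. The number called on chow fell to 13 without chow saline replicate 3. At an unadjusted p under 0.05 there were 1048 genes on chow (9.06%) and 548 under DEN/HFD (4.74%). Across all 11568 genes, both effects, which share no library, had a Pearson r of 0.148 and a Spearman rho of -0.0318, and r was 0.0584 without the 40 genes called in either setting. These coefficients are across genes of the same libraries, which are not independent.

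**Figure D3:**
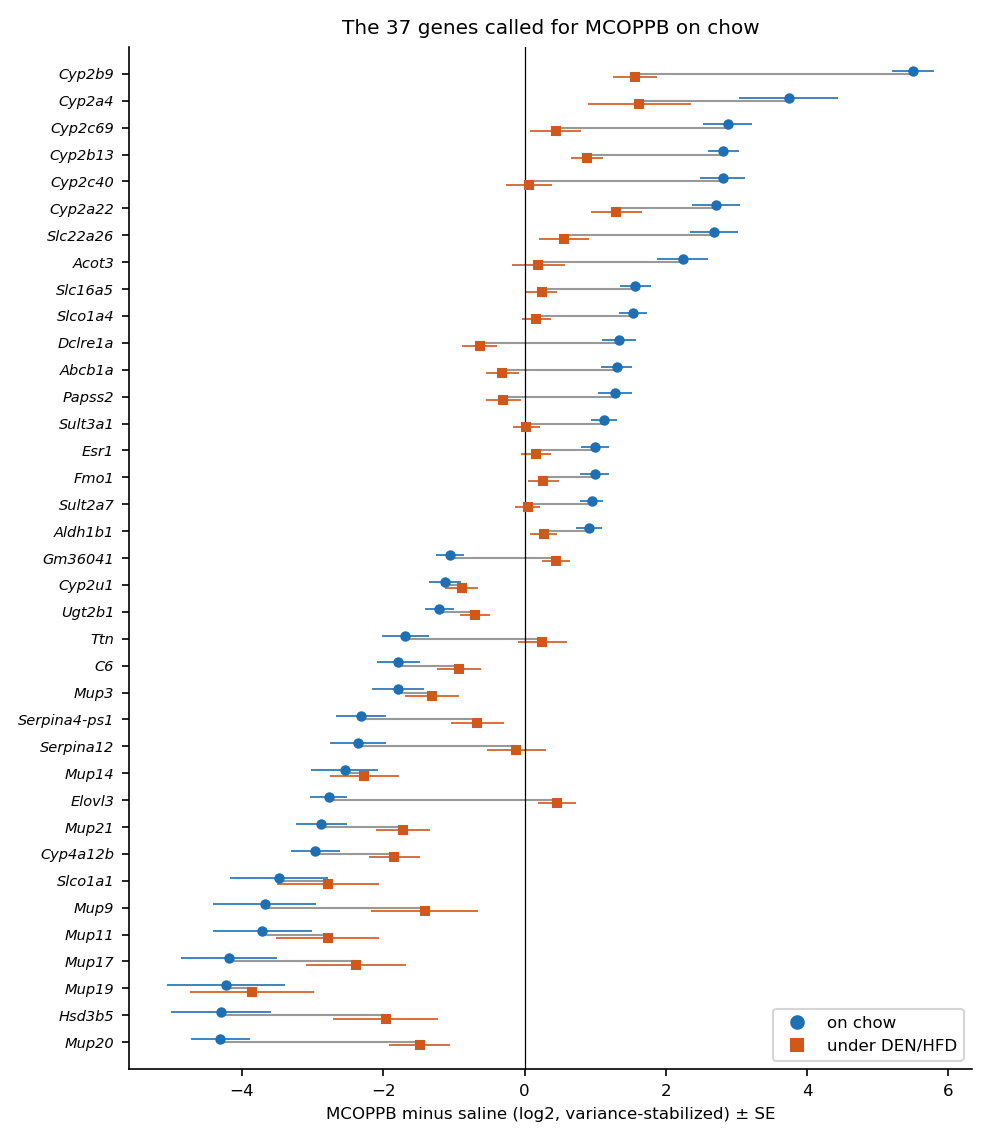
MCOPPB effects (log2, x axis, bars are SE) of the 37 genes called on chow, on chow (circles) and under DEN/HFD (squares), ordered by the chow effect. Every square lies nearer to 0 than its circle or across it, and the gap is wide for Cyp2b9, Cyp2c40 and Elovl3 but narrow for Mup19, Mup14 and Cyp2u1.

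A list of female-biased liver genes held 10 of the 37 genes called on chow (27 tested), and one of male-biased genes 16 (44 tested). Over all tested genes 0.320% were called on chow, and both lists were chosen with earlier results of these data known. Of the 27 tested female-biased genes, 3 differences were called (0.0692% of all tested genes). At an unadjusted p under 0.05 there were 12, all negative (3.18% of all tested genes). In all, 21 of the 27 differences were negative, against 50.6% of all tested genes. Their median difference was -0.77, against -0.0043 over all tested genes, from a median effect of 1.17 on chow and 0.52 under DEN/HFD. The effect was positive for 26 of 27 in each setting (50.1% of all genes on chow, 49.3% under DEN/HFD), and 2 of the 27 had opposite signs in the 2 settings. Cyp2c69, Slc22a26, Sult3a1 and Cux2 are in this list and passed the expression filter only with the chow MCOPPB livers, where they were high. The counts and medians of the list therefore follow in part from the filter. Several genes of the list had effects near 0 under DEN/HFD after a called effect on chow. Slco1a4, an organic anion transporter, was at 182, 248 and 297 normalized counts with saline on chow and 922, 1134, 784, 758 and 693 with MCOPPB, and at a mean of 233 and 277 under DEN/HFD (difference -1.37 ± 0.28, limma adjusted p = 0.113). Sult3a1, a sulfotransferase, was at 0 in all 3 chow saline livers, at 15.02 to 37.4 in the 5 chow MCOPPB livers, and at no more than 3.95 in any DEN/HFD liver (difference -1.10 ± 0.27, adjusted p = 0.273). It passed the expression filter only through the chow MCOPPB livers, so its higher level there than elsewhere follows from the filter. Acot3, an acyl-CoA thioesterase of peroxisomes, had effects of 2.24 ± 0.36 on chow and 0.20 ± 0.38 under DEN/HFD.

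Cyp17a1, the steroid 17-hydroxylase, did not follow the smaller effects of that list. It was at 167, 141 and 242 normalized counts with saline on chow and at 286, 495, 473, 686 and 668 with MCOPPB. Under DEN/HFD it was at 184, 279, 206 and 132 with saline and at 559, 855 and 985 with MCOPPB, and no treated liver overlapped its saline group in either setting. Cyp17a1 rose under DEN/HFD (1.64 ± 0.26, limma adjusted p = 0.0312), its effect on chow was 1.17 ± 0.25 (adjusted p = 0.0542), and the difference of 0.48 ± 0.36 had a 95% interval of -0.28 to 1.23. The call under DEN/HFD held in 7 of the 15 fits that leave out a library and in none of the 7 without a DEN/HFD library (limma adjusted p up to 0.362).

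Among 44 tested male-biased genes, Elovl3 alone was called for the difference (0.0692% of all tested genes). At an unadjusted p under 0.05 there were 8, all positive (2.72% of all tested genes). The median effect was -1.56 on chow and -1.18 under DEN/HFD, with 43 of 44 negative in each setting (49.9% and 50.7% of all genes), and 32 differences positive (49.4% of all genes), and the median difference was 0.28. Within the list the size of the difference varied. Mup20, the urinary pheromone darcin, was at 122817, 112338 and 99355 normalized counts with saline on chow and 6248, 8252, 6011, 7462 and 2190 with MCOPPB, and at a mean of 193212 and 63878 under DEN/HFD (difference 2.82 ± 0.60, limma adjusted p = 0.136). Serpina12, the adipokine vaspin, had an effect of -2.36 ± 0.40 on chow and -0.12 ± 0.42 under DEN/HFD. By contrast, the major urinary protein gene Mup14 had effects of -2.55 ± 0.47 and -2.27 ± 0.49, and Mup19 had -4.22 ± 0.84 and -3.86 ± 0.87. Their differences, 0.28 with a 95% interval of -1.15 to 1.71 and 0.37 with -2.18 to 2.92, are wide, and both changed sign when single libraries were left out. DEN/HFD saline replicate 4 was the highest of its group for both, at 195177 normalized counts of Mup14 against 58402, 40692 and 30634, and at 679921 of Mup19 against 45568, 115636 and 81307. Without it the differences were 0.83 for Mup14 and 1.16 for Mup19. Major urinary protein genes are near-identical copies whose reads can be shared, so single members are uncertain. Many members of the male-biased list are such genes, so its counts and medians may rest in part on the same reads, which was not tested.

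Hsd3b5, a male-specific steroid dehydrogenase, depended on DEN/HFD saline replicate 4. It was at 1804, 1956 and 1335 normalized counts with saline on chow and 32.2, 119, 13.2, 17.8 and 0 with MCOPPB. The DEN/HFD livers held 27.9, 66.3, 48.4 and 2053 with saline and 7.96, 1.68 and 6.59 with MCOPPB. Thus 3 of 4 DEN/HFD saline livers lay far below the chow saline livers and the remaining liver above all 3 of them. The difference was 2.33 ± 1.02 with all libraries (limma adjusted p = 0.821) and 3.37 ± 0.49 without that replicate (adjusted p = 0.0112). The median difference of the male-biased list was 0.69 without it, and that of the female-biased list -0.78.

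Genes of foreign compound metabolism under CAR and PXR overlapped the female-biased list at Cyp2b9, Cyp2b13, Slco1a4 and Abcc4. Of 39 tested, 2 were called (0.0692% of all tested genes), namely Cyp2b9 and Cyp2b13, both already counted in the female-biased list. No member outside that overlap was called. In the list, 10 were at an unadjusted p under 0.05, all negative (3.18% of all tested genes), among them the shared Cyp2b9, Cyp2b13 and Slco1a4. The list had a median difference of -0.45. Por, the reductase that feeds electrons to P450 enzymes, was at 1775, 1525 and 1570 normalized counts with saline on chow and 4378, 5101, 3592, 3119 and 4291 with MCOPPB. Under DEN/HFD it was at 1200, 2006, 1751 and 4042 with saline and 1241, 970 and 976 with MCOPPB. Treated livers were all above saline on chow, and under DEN/HFD they were in the lower part of the saline range or below it, with replicate 4 of the saline group the highest. The difference was -2.17 ± 0.40 (limma adjusted p = 0.0531), and it passed without that replicate (-1.85 ± 0.30, adjusted p = 0.0334). Abcb1a, a P-glycoprotein efflux pump, was at 0 to 23.2 normalized counts with saline and 75.6 to 99.2 with MCOPPB on chow, and at 24.3 to 72.8 and 19.6 to 53.2 under DEN/HFD (difference -1.62 ± 0.32, adjusted p = 0.0928).

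Clock genes had median effects near 0 on chow or above it and negative ones under DEN/HFD. Of 17 tested core clock genes, none was called in limma and 6 were at an unadjusted p under 0.05 (5.90% of all tested genes), 5 of them negative (3.18%), with a median effect of 0.044 on chow and -0.37 under DEN/HFD. Of 16 tested clock output genes, Usp2 was called (0.0692% of all tested genes), and the medians were 0.27 on chow and -0.51 under DEN/HFD. At an unadjusted p under 0.05 there were 7, all negative (3.18% of all tested genes). Por, which is among these 7, and Alas1 are also in the CAR and PXR list. Inmt, a methyltransferase of indole amines, fell by 1.71 ± 0.27 under DEN/HFD (limma adjusted p = 0.0312), from 3692, 3576, 3786 and 7118 normalized counts with saline to 1562, 1122 and 1149, and had an effect of -0.13 ± 0.26 on chow. That call, too, was lost without any 1 of the 7 DEN/HFD libraries (-1.48 ± 0.25 without saline replicate 4, limma adjusted p = 0.105). The difference for Inmt was -1.59 ± 0.38 (adjusted p = 0.258), and -1.35 ± 0.34 without that replicate (adjusted p = 0.332). Upp2, the liver uridine phosphorylase, was at 1703, 2006, 1526 and 6627 with saline under DEN/HFD and 495, 563 and 606 with MCOPPB (difference -2.71 ± 0.57, adjusted p = 0.125, and -2.24 ± 0.42 without replicate 4, adjusted p = 0.0718). In Inmt, Upp2, Por and Usp2, DEN/HFD saline replicate 4 was the highest of its group, and the treated livers lay below the other 3 saline livers as well, except 1 Por value.

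Per3, a clock repressor, was at 71.1, 299 and 159 normalized counts with saline on chow and 329, 188, 179, 180 and 358 with MCOPPB, and at 89.7, 166, 143 and 303 and then 31.6, 3.83 and 60.9 under DEN/HFD. The 3 treated DEN/HFD livers were the lowest of the 15 (difference -1.81 ± 0.47, limma adjusted p = 0.375). Arntl, the gene of BMAL1, which runs in the opposite phase to the Per genes, was at 13.6, 7.88, 5.89 and 16.5 with saline and 88.2, 67.3 and 8.82 with MCOPPB under DEN/HFD (difference 1.07 ± 0.49, adjusted p = 0.83). On chow Arntl was at 46.0, 25.4 and 0 with saline and at 7.77, 4.78, 34.9, 0 and 0 with MCOPPB. Its saline and treated groups overlapped in both settings, at low counts. Wee1, a cell cycle kinase under clock control, had effects of 0.44 ± 0.27 and -0.84 ± 0.28. Without DEN/HFD saline replicate 4 the median differences were -0.46 for the core clock and -0.51 for clock output, and the difference for Per3 was -1.59 ± 0.46 (limma adjusted p = 0.584). The hour of collection is not given in the sources used here, and its part in these values was not tested.

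The Per3 upstream window (chr4:151044666-151044915, - strand, RefSeq, GRCm38.p6) is shown for the D-box, the element bound by clock output factors such as DBP and TEF. The letters TTATGTAA, searched on both strands, occur in it 2 times, marked in capitals.
Per3: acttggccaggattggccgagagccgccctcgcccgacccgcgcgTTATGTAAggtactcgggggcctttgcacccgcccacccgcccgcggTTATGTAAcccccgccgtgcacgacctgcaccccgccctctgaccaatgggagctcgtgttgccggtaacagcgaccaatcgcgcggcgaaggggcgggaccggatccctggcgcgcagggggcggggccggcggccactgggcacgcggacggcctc
Of 32851 windows of 250 bases before a gene start, 0.819% held that motif. The 27 clock genes with a window had 38 windows, of which 1 held it (2.63%), that of Per3. The E-box CACGTG, the site of BMAL1 and CLOCK, was in 6.02% of all windows and in 6 of the 38 clock gene windows (15.8%). Those 6 windows belonged to 5 of the 27 clock genes (Bhlhe41, Ciart, Cry1, Per1 and Tef). These matches describe letters in a window and not binding.

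**Figure D4:**
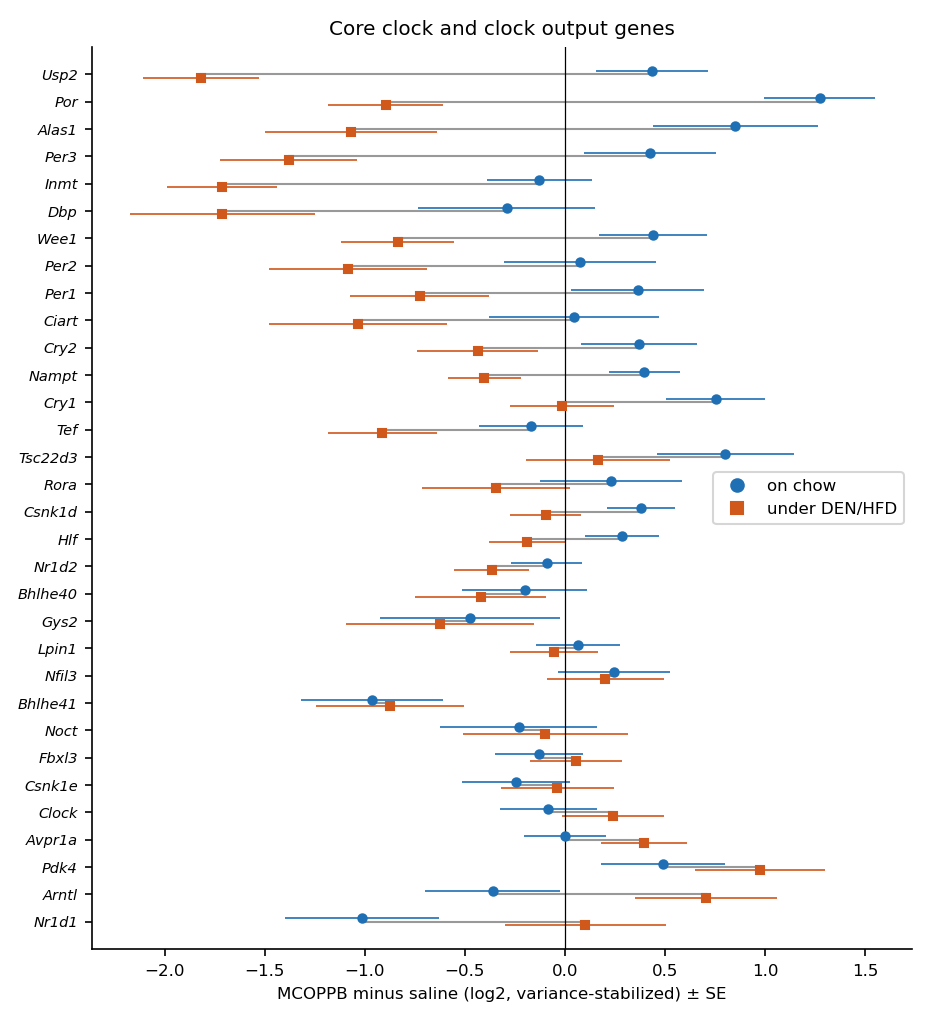
MCOPPB effects (log2, x axis, bars are SE) of 32 of the 33 tested clock and clock output genes on chow (circles) and under DEN/HFD (squares), ordered by the difference. Most squares lie to the left of their circles, with Usp2 at 0.44 and -1.82, and Arntl is the reverse.

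The lists of lipid and bile acid metabolism, which leave out Elovl3, held no called difference in limma. Some of their members, such as Acot3 and Slco1a4, were also in the lists above. Of 25 tested cholesterol synthesis genes, 23 had positive effects on chow and 22 under DEN/HFD, with medians of 0.64 and 0.32, and no difference was at an unadjusted p under 0.05 or called in limma. PPARalpha targets had medians of 0.31 and 0.012, and 5 of 40 differences were at an unadjusted p under 0.05 (5.90% of all tested genes), 4 of them negative (3.18%). Cyp7a1 encodes the hydroxylase that starts bile acid synthesis from cholesterol. It was at 105, 366 and 272 normalized counts with saline and 576, 587, 1388, 1648 and 547 with MCOPPB on chow, and at 114, 232, 375 and 869 and then 382, 83.2 and 136 under DEN/HFD. Its groups were separate on chow and overlapped under DEN/HFD (difference -2.28 ± 0.70, limma adjusted p = 0.579, and -1.86 ± 0.63 without DEN/HFD saline replicate 4, the highest of its group, adjusted p = 0.791). Chka, the choline kinase at the start of phosphatidylcholine synthesis, was at 67.3, 101, 70.8 and 49.0 with saline and 326, 268 and 266 with MCOPPB under DEN/HFD, without overlap, and at overlapping levels on chow (difference 1.70 ± 0.34, adjusted p = 0.101).

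Senescence genes, which bear on the use of MCOPPB as a senolytic, had no called difference in limma. Of 28 tested members, 4 were at an unadjusted p under 0.05 (5.90% of all tested genes), 1 positive (2.72%) and 3 negative (3.18%), with a median difference of -0.090. Cdkn1a, the gene of the cell cycle inhibitor p21, was at 12.6, 43.4 and 17.0 normalized counts with saline and 0, 15.1, 13.5, 13.4 and 9.92 with MCOPPB on chow. Under DEN/HFD it was at 76.0, 32.8, 65.0 and 12.6 with saline and 67.7, 115 and 195 with MCOPPB. The saline and treated groups overlapped in both settings (difference 1.19 ± 0.39, limma adjusted p = 0.65). Cdkn2a, the gene of p16, did not pass the expression filter. The BCL2 family had no difference at an unadjusted p under 0.05 among 17 tested.

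Markers of other cells and of library composition were compared in the same way, and Timd4, a Kupffer cell marker, was above 0 in 14 of 15 libraries. Of 14 tested Kupffer cell genes, 13 differences were negative (50.6% of all tested genes were), 3 were at an unadjusted p under 0.05 (5.90% of all tested genes) and none was called in limma, with medians of 0.54 on chow and 0.10 under DEN/HFD. Marco, a scavenger receptor of Kupffer cells, was at 30.3, 26.6 and 9.19 normalized counts with saline and 359, 91.9, 135, 451 and 204 with MCOPPB on chow, and at 79.5, 329, 82.1 and 65.4 and then 3.18, 274 and 13.2 under DEN/HFD. Other Kupffer cell genes differed from Marco there, and 8 of the 14 effects under DEN/HFD were positive and 6 negative. Mean counts under DEN/HFD rose from saline to MCOPPB for Clec4f (500 to 632), Vsig4 (140 to 173) and Cd5l (807 to 966). They fell for Timd4 (21.5 to 12.5) and Marco (139 to 96.9). The mean log2 level of the Kupffer list ran from 7.63 to 7.70 in chow saline livers and from 8.01 to 8.51 with MCOPPB on chow, and under DEN/HFD from 7.82 to 8.64 with saline and from 7.88 to 8.64 with MCOPPB. In bulk liver, fewer cells of a type and less RNA per cell cannot be told apart. For red blood cell genes 7 of 8 differences were negative (median -0.75), for mitochondrial transcripts 12 of 13 were positive (median 0.52), and for adipose genes 6 of 7 were positive (median 0.70). None of these was called in limma, and 2, 0 and 0 of them were at an unadjusted p under 0.05. The adipose list lay at 8.09 to 9.16 in chow saline and 7.67 to 8.14 in chow MCOPPB livers. The part of these markers in the results above was not tested.

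**Figure D5:**
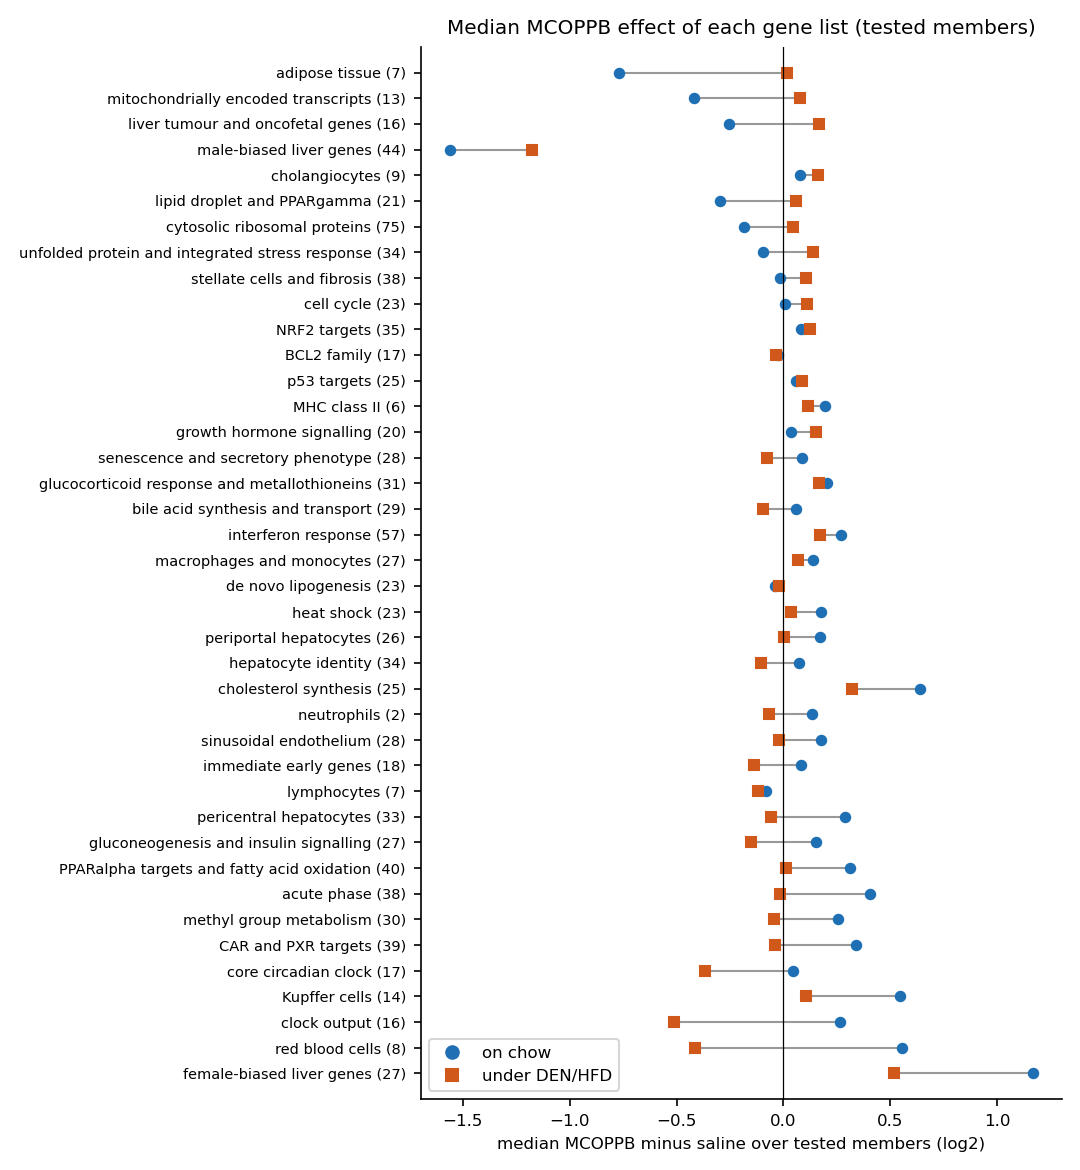
Median MCOPPB effect (log2, x axis) over the tested members of 40 gene lists, on chow (circles) and under DEN/HFD (squares), ordered by the median difference, with the number of tested members in parentheses. The female-biased list shifts from 1.17 to 0.52 and the clock output list from 0.27 to -0.51, while the male-biased list stays below -1 in both.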

How the data were processed

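RNA sequencing of total liver RNA (250 ng per library, strand-keeping kit, 75-base single reads) was deposited as 1 table of 54281 genes by 15 libraries. Per the submitters' processing notes, Trimmomatic, STAR 2.7.0e, HTSeq and DESeq2 were used with GRCm38 (mm10). The authors deposited log2-scale values that match DESeq2's variance-stabilizing transformation, whose lowest value, 5.49134, marks 0 reads. Whole reads could not be recovered from them. Groups came from the sample titles.

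Genes at least 1 log2 unit above the lowest value in 3 or more libraries were kept (11568). A model of 4 group means was fitted to the deposited log2 values in limma 3.58.1 (R 4.3.3) with a mean-variance trend and Benjamini-Hochberg adjustment over all kept genes, and the difference of effects was a contrast over all 15 libraries. Differences are on the variance-stabilized scale, which compresses changes at low levels. Normalized counts were obtained by inverting the transformation and are relative to the authors' size factors. Gene names and coordinates came from GENCODE M21 (54107 identifiers matched), and upstream sequences from RefSeq.

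Named genes were those called for the difference, then those with the smallest p up to 24, the 12 chow-called genes with the largest effect, those called under DEN/HFD, up to 4 members of each of 40 lists by p, list members called in either setting, and Oprl1, Pnoc, Cdkn1a and Cdkn2a. The members and lists were chosen with earlier results of these data known. The fits were tested on simulated data. Alternatives covered filters, scales, normalization, covariates, weights, a replicate block and leaving out each library. The values of 1 clock gene are not reported here, though it counts in its list.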

Additional observations from a re-analysis of the deposited data

Results flagged for a closer look

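The 8 genes whose MCOPPB effect differed between DEN/HFD and chow in limma have differences of -3.93 (Cyp2b9), 3.24 (Elovl3), -1.93 (Cyp2b13), -2.74 (Cyp2c40), 2.56 (Gm43302), -1.97 (Dclre1a), 1.47 (Dtx4) and -2.25 (Usp2) on the log2 scale.

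A check of the levels of these genes for an outlying library was set up over 16 groups of 4 or 5 libraries. Gm43302 in the chow MCOPPB livers, at 0 in all of them, had no range and could not be checked. Among the others, 2 groups held a library far from the rest. Elovl3 in DEN/HFD saline replicate 4 lay below the other 3 by 0.953 of the group's range. Gm43302 in DEN/HFD saline replicate 3 was the only one above 0, a gap of 1 in the same measure. Chance alone gives such a gap in about 5% of groups without tied values. That rate does not apply to Gm43302, whose other DEN/HFD saline livers were all at 0.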

How the results depend on the processing

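Cyp2b9 and Elovl3 were called in all 27 alternatives, and the 8 called genes kept the sign of their difference wherever they were tested. The count of 8 became 2 without a filter, 4 with a pseudocount of 1, 3 and 2 with the first and second RIN label as covariate, and 2 to 12 with a library left out. The 683 genes at an unadjusted p under 0.05 became 1210 without a filter, 439 with a stricter filter, 1266 with the first RIN label, and 572 to 1203 with a library left out. The 37 genes called on chow became 15 with the first RIN label and 13 to 50 with a library left out. The 3 called under DEN/HFD became 6 without a filter, 0 with quantile normalization, 0 with the second RIN label, 5 with the mitochondrial covariate, 8 with array weights, and 0 to 6 with a library left out. The chow-called genes' median of 0.667 under DEN/HFD became 0.885 with a stricter filter, 1.04 and 0.882 with pseudocounts of 1 and 16, and 0.384 to 0.758 with a library left out. Pearson r of both effects became 0.113 without a filter, 0.187 with a stricter filter, 0.0514 and 0.108 with pseudocounts of 1 and 16, 0.223 and 0.259 with the RIN labels, 0.200 with the mitochondrial covariate, 0.0950 with array weights, and 0.0718 to 0.188 with a library left out. The cause was not tested. RIN by the first label averaged 9.96 in chow MCOPPB livers and 9.23, 8.85 and 9.00 in the chow saline, DEN/HFD saline and DEN/HFD MCOPPB livers. Each sample carries 2 RIN labels, which differ except in chow saline replicate 3 and DEN/HFD MCOPPB replicate 1.

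Some differences reversed. Mup19 ran from -0.309 to 1.16 with a library left out, being negative without chow MCOPPB replicate 5 (-0.0377), DEN/HFD MCOPPB replicate 1 (-0.309) and DEN/HFD saline replicate 1 (-0.139). Slco1a1 ran from -0.0389, without DEN/HFD MCOPPB replicate 1, to 1.36, and was -0.618 with a pseudocount of 1, where Cyp4a12b was -0.472. Mup14 ran from -0.0634 to 0.834, being negative without chow saline replicate 2 (-0.0634) and DEN/HFD saline replicate 3 (-0.0549).

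With the replicate number as a block, 2 genes were called for the difference, 528 were at an unadjusted p under 0.05, 23 were called on chow and 0 under DEN/HFD (548 at an unadjusted p under 0.05 in limma without the block), and r was 0.0728. The libraries showed no sign of pairing by number. Of 19 same-numbered pairs, 5 deviated together with a correlation above 0.1 (mean -0.0273), against 17 of 64 other pairs (mean 0.00838). Shared cages or dates were not tested.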
